A study of Mus musculus with 34 samples.

Results

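The genes of the primary cilium and of the ciliopathies, the inherited diseases caused by defects of this organelle, were examined in mouse kidney. They were 52 genes chosen by name for their place in the cilium, among 23509 genes in the count tables, and all 52 were among the 15644 genes with enough counts to be tested. Of the 52, 49 in 7 roles are described by name. There are 11 subunits of intraflagellar transport complex B (IFT-B), 6 genes of complex A (IFT-A) and its adaptor, 4 motor genes, 10 genes of the BBSome, 13 of the transition zone, 3 of the inversin compartment and 2 of the basal body.

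Kidney polyadenylated RNA was sequenced from 34 C57BL6 mice, 1 library per mouse, in 3 groups. The PBS group (n = 11) and the RGLS4326 group (n = 11) were *Pkd2*-KO mice, which carry floxed *Pkd2* and a Cre recombinase under the *Pkhd1* promoter, so that kidney cells in which that promoter is silent keep the gene; the labels spell this genotype Pdk2KO. RGLS4326, a short modified oligonucleotide complementary to the miR-17 seed, was given subcutaneously at 20 mg per kg on postnatal days (P) 10, 11, 12 and 19, and PBS on the same days, and kidneys were taken on P28. The UNT group (n = 12) held untreated wild-type mice of the same strain. PBS was compared with UNT for the change in diseased kidneys, and RGLS4326 with PBS for the change with treatment. Each group held both sexes.

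Cells of kidney tubules carry a primary cilium, a non-motile antenna that grows from a basal body and holds the polycystins in its membrane. IFT-B and the kinesin-2 motor carry cargo to the tip, IFT-A and dynein-2 carry it back, the BBSome takes membrane proteins out, and the transition zone gates the base. Loss of many of these genes gives cystic kidneys, as loss of *Pkd2*, which encodes polycystin-2, does.

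Levels are given as CPM, in which the count of a gene is set against a library size scaled by TMM, the trimmed mean of M values. Fold changes are on the log2 scale with their standard error (SE), and a gene was called at an adjusted p, from edgeR's quasi-likelihood test with Benjamini-Hochberg adjustment over all tested genes, under 0.05. In whole kidney, fewer cells of a type and less RNA per cell cannot be told apart. The libraries held between 17603122 and 54981992 reads in genes. *Pkd2* itself, the deleted gene, was at 219.6 to 338 CPM (median 274) in UNT mice, 98.03 to 214 (median 165) in PBS and 170.0 to 237 (median 210.3) in RGLS4326, with no overlap between PBS and UNT mice (-0.78 ± 0.092, adjusted p = 1.40e-09). Reads in no gene made up 9.84% to 11.3% of UNT, 5.18% to 8.99% of PBS and 4.94% to 12.0% of RGLS4326 libraries. Reads not placed uniquely made up 22.8% to 25.7% in UNT, 14.8% to 19.4% in PBS and 14.8% to 19.1% in RGLS4326, so UNT libraries were apart from the others, and the part of this in the results was not tested. Markers of kidney and immune cell types also differed between the groups. Summed markers of the proximal tubule (8 genes, none at 0 in any mouse) were at 9880 to 13840 CPM in UNT, 929 to 3164 in PBS and 2052 to 3444 in RGLS4326 mice. Summed macrophage markers (5 genes, none at 0) were at 80.4 to 131 CPM, 416 to 954 and 410 to 759, and summed fibroblast and myofibroblast markers (6 genes, none at 0) at 474 to 1104, 2387 to 5151 and 3184 to 4790. Those of the collecting duct (7 genes, none at 0), where the *Pkhd1* promoter is active, were at 735 to 1159, 969 to 2376 and 539 to 2078 CPM. In PBS vs UNT the 8 proximal tubule genes all fell, the 5 macrophage and 6 fibroblast and myofibroblast genes all rose, and of the collecting duct genes 5 rose and 2 fell. In RGLS4326 vs PBS 5 of the 8 proximal tubule, 4 of 4 podocyte and 3 of 4 endothelial markers rose, and 3 of 7 collecting duct, 2 of 5 macrophage and 3 of 5 lymphocyte markers fell. The part of cell makeup in the results on cilium genes was not tested. PBS mouse 9 had the lowest level of its group for 21 of the 52 cilium genes and the highest for 12, and UNT mouse 10 the lowest for 12 and the highest for 18.

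The mature microRNAs that RGLS4326 is directed at are shown first, because a match to their seed is the sequence feature by which a cilium gene could be read as a target. Capitals mark the seed, bases 2 to 8, which the 6 microRNAs share. miR-17-5p lies at chr14:115043684-115043706 on the plus strand (RefSeq, GRCm38.p6).
mmu-miR-17-5p: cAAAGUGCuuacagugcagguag
mmu-miR-20a-5p: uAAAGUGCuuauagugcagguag
mmu-miR-93-5p: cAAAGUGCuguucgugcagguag
mmu-miR-106b-5p: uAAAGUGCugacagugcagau
mmu-miR-106a-5p: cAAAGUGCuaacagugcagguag
mmu-miR-20b-5p: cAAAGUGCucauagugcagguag

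Matches to that seed were searched in the longest 3′UTR of each gene (GENCODE M21, GRCm38), and the difference from all tested genes was not tested. GCACTTT or CACTTTA was present in 8 of 51 cilium genes (15.7%) against 21.2% of 14195 genes, and the 8-base GCACTTTA in *Invs* alone (1.96% against 4.26%). The 3′UTRs of the cilium genes were also shorter, with a median of 778 bases against 1150. The matches below are those of *Bbs12* and *Ift88*, the only cilium genes with a match that were called in RGLS4326 vs PBS, and of *Invs*. Capitals mark the match.
Bbs12, chr3:37321348-37321354, plus strand: aagaacagcaaGCACTTTtgagtcatttc
Ift88, chr14:57517728-57517734, plus strand: ttgcaaggcaaGCACTTTtccaattgtgc
Invs, chr4:48431103-48431110, plus strand: aaaaacaaaagGCACTTTAgtttgagaacc

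A further sequence shared by some of these genes is the X-box, the site of the RFX factors that drive ciliary genes: GTTNC, 4 bases of any kind, then GNAAC, which reads the same on both strands. It was searched in RefSeq promoters (250 bases before to 50 after the start) and was present in those of 4 of 47 cilium genes (8.51%). The share was 1.19% over all 27025 genes with such a promoter, whether or not they were tested here. A second motif, GTTNCC, which is the first arm followed by a C, was searched on both strands and can overlap the longer pattern. It was in 38 of 47 (80.9%) against 48.8% of the same 27025 genes. Neither difference was tested. The 4 X-box matches are shown with the pattern in capitals, because they are what these promoters have in common and their genes moved differently, as given below.
Bbs7, chr3:36613497-36613510, minus strand: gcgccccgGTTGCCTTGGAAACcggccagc
Mks1, chr11:87853191-87853204, plus strand: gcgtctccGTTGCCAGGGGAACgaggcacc
B9d2, chr7:25680796-25680809, plus strand: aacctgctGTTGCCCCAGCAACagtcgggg
Tctn1, chr5:122264411-122264424, minus strand: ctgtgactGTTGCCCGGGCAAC

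In PBS-treated *Pkd2*-KO kidneys 17 of the 52 cilium genes rose and 23 fell relative to UNT, and 12 were not called. Over all tested genes 82.1% were called, 43.1% higher and 39.0% lower, so the share of cilium genes called (40 of 52) was close to the background. Their changes were small. The median absolute log2 fold change was 0.34 over the cilium genes and 0.60 over all genes tested, and 11 cilium genes were called with an absolute log2 fold change above 0.5, against 56.3% of all genes. The ranges of PBS and UNT mice did not overlap for 6 cilium genes that rose and 9 that fell, against 22.7% and 19.8% of all genes. The largest rise was that of *Ift43* and the largest fall that of *Bbs7*, and the plot of fold changes by role gives each gene.

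**Figure D1:**
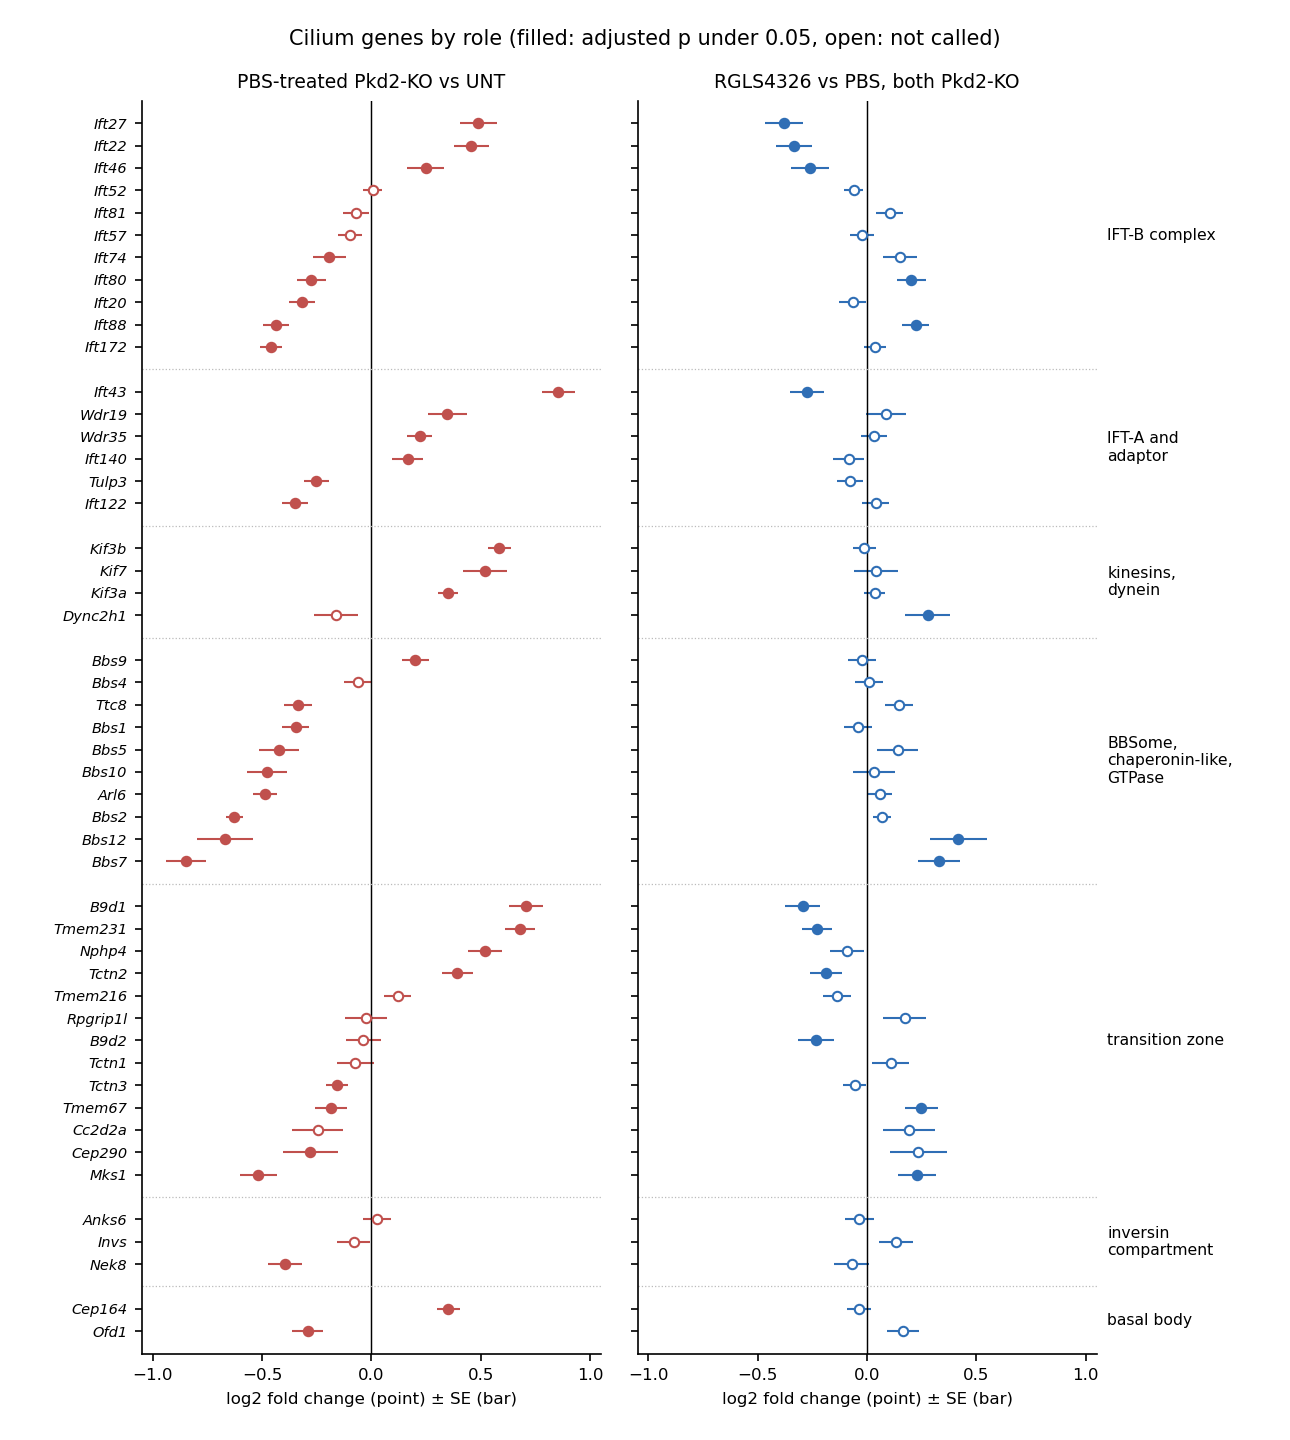
Log2 fold change of 49 of the cilium genes (points) ± SE (bars) in PBS vs UNT (left) and RGLS4326 vs PBS (right), grouped by role and ordered within a role by the left panel, filled where the adjusted p was under 0.05. On the left 8 of the 10 BBSome genes lie below 0 and are filled, and on the right no point lies beyond 0.5 in either direction.

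The BBSome is a coat of several proteins, assembled with the help of the chaperonin-like *Bbs10* and *Bbs12* and recruited to membranes by the GTPase *Arl6*, and its genes are those of Bardet-Biedl syndrome. Of its 10 genes here 8 fell, 1 rose and 1 was not called, with a median log2 fold change of -0.45. *Bbs2* (chr8:94067954-94098928), a subunit of the coat, was at 35.1 to 42.1 CPM (median 38.8) in UNT mice, 23.8 to 26.1 (median 25.1) in PBS and 24.2 to 29.8 (median 26.6) in RGLS4326. Every UNT mouse was above every PBS and RGLS4326 mouse. Its log2 fold change was -0.63 ± 0.041 (adjusted p = 2.62e-16), the smallest p of all 52 genes.

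*Bbs7* (chr3:36573142-36613477), which pairs with *Bbs2* in the coat, was at 15.7 to 27.2 CPM (median 18.5) in UNT mice, 7.996 to 14.4 (median 10.5) in PBS and 11.3 to 16.4 (median 13.5) in RGLS4326. PBS and UNT mice did not overlap, and the log2 fold change of -0.85 ± 0.094 (adjusted p = 2.81e-10) was the largest fall. *Bbs12* was at 6.57 to 10.6 CPM (median 8.38) in UNT mice, 3.56 to 6.07 (median 5.38) in PBS and 4.67 to 10.7 (median 6.38) in RGLS4326, also with no overlap between PBS and UNT (-0.67 ± 0.13, adjusted p = 1.19e-05). Both lie on chromosome 3. Exons of *Bbs12* overlap those of the neighbouring *Cetn4* by 1.31% of their length, so a few of its reads are uncertain. *Arl6* was the fourth gene of the role whose groups did not overlap (-0.49 ± 0.055).

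The other BBSome genes that fell were *Bbs10* (-0.48), *Bbs5* (-0.42), *Bbs1* (-0.35) and *Ttc8* (-0.33). *Bbs9* was the only gene of the role that rose (0.20 ± 0.062, adjusted p = 0.00347). *Bbs4*, with 19.5 to 28.02 CPM (median 21.9) in UNT mice, 19.1 to 24.4 (median 21.6) in PBS and 17.9 to 25.3 (median 20.5) in RGLS4326, was not called (-0.06 ± 0.062, adjusted p = 0.347), and its groups overlapped throughout.

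A like direction was seen in genes that work with the BBSome but are not among the 52. Of 6 such genes 4 fell and 1 rose, with a median log2 fold change of -0.60. *Lztfl1*, which regulates BBSome entry into the cilium, had -0.94 ± 0.11 (adjusted p = 6.58e-10), and *Mkks*, another chaperonin-like protein, -0.81 ± 0.084 (adjusted p = 7.24e-11). *Bbip1*, the smallest subunit, had -0.68. *Rab8a* was not called (0.02).

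Of the 4 motor genes 3, all kinesins, rose, 0 fell and 1 was not called. *Kif3b* (chr2:153291413-153333390), a motor subunit of kinesin-2, was at 49.7 to 63.2 CPM (median 52.9) in UNT mice, 67.1 to 89.1 (median 82.2) in PBS and 68.5 to 88.7 (median 82.5) in RGLS4326. PBS and RGLS4326 mice were all above the UNT mice, and the log2 fold change was 0.59 ± 0.051 (adjusted p = 8.49e-13). Its partner *Kif3a* was at 30.4 to 36.6 CPM (median 32.8) in UNT mice, 37.8 to 46.4 (median 42.6) in PBS and 38.4 to 48.9 (median 42.7) in RGLS4326, again without overlap of PBS and UNT (0.35 ± 0.046, adjusted p = 1.40e-08).

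*Kif7*, a kinesin that organizes the ciliary tip for hedgehog signals, rose by a similar amount (0.52 ± 0.099) from a low level (median 4.01 CPM in UNT). *Dync2h1*, the heavy chain of dynein-2, was not called, with 37.7 to 61.5 CPM (median 47.1) in UNT mice, 22.02 to 53.8 (median 43.6) in PBS and 39.8 to 67.8 (median 50.4) in RGLS4326 (-0.16 ± 0.10, adjusted p = 0.138). The kinesin-2 linker *Kifap3*, from the list of other motor genes, rose (0.18 ± 0.050, adjusted p = 0.00126), while the dynein-2 intermediate chain *Wdr60* fell (-0.30 ± 0.063).

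Of the 6 IFT-A and adaptor genes 4 rose and 2 fell. *Ift43* (chr12:86082541-86162459), a small peripheral subunit, was at 10.5 to 14.7 CPM (median 13.3) in UNT mice, 19.1 to 33.4 (median 23.2) in PBS and 17.4 to 23.1 (median 18.7) in RGLS4326. Each PBS mouse was above each UNT mouse, and its log2 fold change of 0.86 ± 0.076 (adjusted p = 1.29e-12) was the largest of the 52 genes in either direction. The lead over *Bbs7* was small. In the fits that each left out a mouse *Ift43* was at 0.763 to 0.884 and *Bbs7* at -0.894 to -0.797. *Ift122*, a core subunit, went down, with 49.6 to 71.5 CPM (median 56.4) in UNT mice, 36.5 to 49.8 (median 44.1) in PBS and 38.4 to 52.6 (median 46.3) in RGLS4326 (-0.35 ± 0.061, adjusted p = 2.76e-06).

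*Wdr19* (0.35) and *Wdr35* (0.22), large subunits with propeller folds, rose. *Tulp3*, the adaptor that brings membrane receptors to IFT-A, fell (-0.25). *Ift140*, the last gene, was called at a modest rise, with 21.99 to 33.3 CPM (median 26.97) in UNT mice, 25.1 to 37.2 (median 31.4) in PBS and 23.8 to 32.9 (median 30.4) in RGLS4326 (0.17 ± 0.069, adjusted p = 0.0274). This call was lost, at adjusted p of 0.0503 to 0.0636, when UNT mouse 1 or 10 or PBS mouse 4, 8 or 11 was left out.

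Among the 11 IFT-B genes 5 fell, 3 rose and 3 were not called. *Ift172*, the largest subunit, was at 52.4 to 72.1 CPM (median 65.1) in UNT mice, 40.6 to 51.8 (median 46.6) in PBS and 42.4 to 54.6 (median 46.9) in RGLS4326 (-0.46 ± 0.050, adjusted p = 1.95e-10), and *Ift88*, the subunit whose hypomorphic allele gives a classical mouse model of cystic kidney, at 25.5 to 34.99 CPM (median 28.3) in UNT mice, 18.6 to 25.3 (median 21.02) in PBS and 21.6 to 29.2 (median 24.5) in RGLS4326 (-0.44 ± 0.060, adjusted p = 3.85e-08). For both, PBS and UNT mice did not overlap. *Ift20* (-0.32), *Ift80* (-0.27) and *Ift74* (-0.19) also fell, the last no longer called without UNT mouse 10 (adjusted p = 0.059).

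The IFT-B genes that rose were *Ift27*, *Ift22* and *Ift46*. *Ift27* and *Ift22* encode small GTPase-like subunits. *Ift22*, listed in the tables under its older symbol *Rabl5*, was at 16.5 to 21.2 CPM (median 18.6) in UNT mice, 20.5 to 35.4 (median 24.4) in PBS and 16.6 to 25.99 (median 19.8) in RGLS4326 (0.46 ± 0.080, adjusted p = 3.00e-06). *Ift27* was at 12.2 to 16.1 CPM (median 13.7) in UNT mice, 14.2 to 26.8 (median 18.99) in PBS and 12.2 to 20.1 (median 14.3) in RGLS4326 (0.49 ± 0.085, adjusted p = 3.00e-06) and *Ift46* at 37.3 to 59.5 CPM (median 41.8) in UNT mice, 44.9 to 60.2 (median 51.6) in PBS and 33.97 to 60.8 (median 41.04) in RGLS4326 (0.25 ± 0.083, adjusted p = 0.00673). When reads in no gene entered the edgeR fit as a covariate, none of the 3 was called. In that fit *Ift22* was at 0.12 (adjusted p = 0.239), *Ift27* at 0.11 (adjusted p = 0.301) and *Ift46* at -0.027 (adjusted p = 0.829). PBS and UNT libraries did not overlap in this share, so the share and the group cannot be cleanly told apart in PBS vs UNT. In single sets of the libraries *Ift27* was not called in set 2 (adjusted p = 0.0782). *Ift46* was not called in set 1 (adjusted p = 0.536) or set 2 (adjusted p = 0.108).

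These groups overlapped for each of the 3 genes. *Ift52*, a core subunit, had the smallest fold change of the 52 genes, with 50.5 to 57.9 CPM (median 53.6) in UNT mice, 46.7 to 61.8 (median 54.1) in PBS and 44.98 to 58.8 (median 51.8) in RGLS4326 (0.01 ± 0.044, adjusted p = 0.896). *Ift81* (-0.07) and *Ift57* (-0.10) were not called, although *Ift57* was called when PBS mouse 9 was left out (adjusted p = 0.00895). Of 12 other IFT and motor genes 4 fell and 2 rose. *Traf3ip1*, an IFT-B subunit, had the largest change (-0.52 ± 0.060, adjusted p = 9.72e-10), and *Cluap1*, another, had -0.27 ± 0.058 (adjusted p = 6.35e-05).

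**Figure D2:**
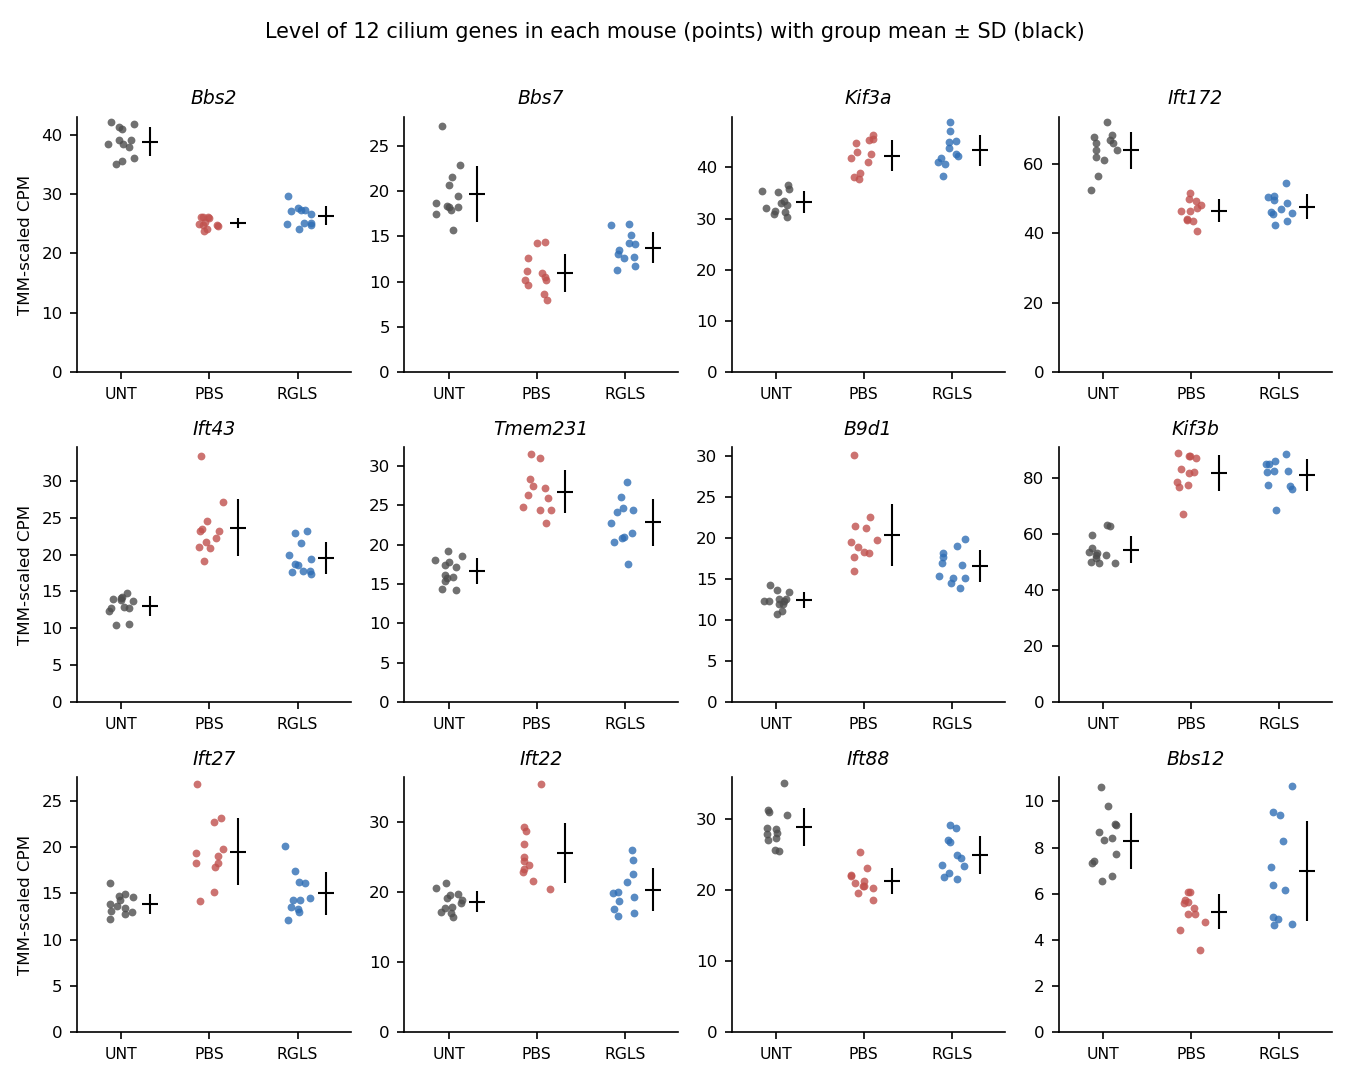
TMM-scaled CPM of 12 cilium genes in each of 34 mice (points; 12 UNT, 11 PBS, 11 RGLS4326) with the group mean ± SD in black, on axes that start at 0. PBS and UNT mice are apart for *Bbs2*, *Bbs7*, *Kif3a*, *Ift172*, *Ift43*, *Tmem231*, *B9d1*, *Kif3b*, *Ift88* and *Bbs12*, and RGLS4326 and PBS mice overlap for each of the 12 genes.

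The 13 transition zone genes were evenly divided, with 4 higher, 4 lower and 5 not called. The 3 with the largest rises were *B9d1*, *Tmem231* and *Nphp4*, and the largest fall was that of *Mks1*. *Tmem231*, a membrane protein of the gate, was at 14.3 to 19.3 CPM (median 16.6) in UNT mice, 22.8 to 31.5 (median 26.3) in PBS and 17.6 to 27.98 (median 22.7) in RGLS4326 (0.68 ± 0.069, adjusted p = 3.07e-11). *B9d1*, a B9-domain protein of the same complex, was at 10.8 to 14.3 CPM (median 12.3) in UNT mice, 16 to 30.1 (median 19.5) in PBS and 13.9 to 19.9 (median 16.8) in RGLS4326 (0.71 ± 0.078, adjusted p = 3.07e-10). Both had PBS and UNT mice fully apart.

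*Nphp4*, mutated in nephronophthisis, rose (0.52 ± 0.078) at a median of 3.83 CPM in UNT and 5.12 CPM in PBS, without overlap, and *Tctn2* rose with overlap (0.39 ± 0.071). *Mks1*, another B9-domain protein, fell without overlap (-0.52 ± 0.084, adjusted p = 8.59e-07). *Tmem67*, a receptor-like protein known as meckelin, was at 12.2 to 17.6 CPM (median 13.3) in UNT mice, 8.88 to 14.1 (median 12.1) in PBS and 12.3 to 17.1 (median 13.9) in RGLS4326 (-0.18 ± 0.073, adjusted p = 0.0201), and lost its call without UNT mouse 10 (adjusted p = 0.0503).

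*Tctn3* (-0.16) and *Cep290* (-0.28) also fell, the latter no longer called, at adjusted p of 0.0511 to 0.111, without any 1 of PBS mice 4, 6, 7, 8 and 9 and UNT mice 10, 11 and 12. *Rpgrip1l*, a scaffold of the gate, was among those not called, with 13.9 to 18.7 CPM (median 14.9) in UNT mice, 8.997 to 19.3 (median 15.9) in PBS and 12.8 to 22.5 (median 15.6) in RGLS4326 (-0.02 ± 0.096, adjusted p = 0.822). The others were *Tmem216* (0.12), *B9d2* (-0.04), *Tctn1* (-0.07) and *Cc2d2a* (-0.25). *Tmem216* was called, at adjusted p of 0.0439 to 0.0479, without PBS mouse 5, 6 or 7 or UNT mouse 9, and *Cc2d2a*, at 0.0271 to 0.0495, in 13 of the 34 fits that each left out 1 mouse: UNT mice 1, 2, 3, 9 and 10, PBS mice 3, 6 and 8, and RGLS4326 mice 4, 5, 6, 7 and 10.

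Other genes of the transition zone and of nephronophthisis included larger changes than the 13. Of 13 such genes 6 rose and 3 fell. *Dcdc2a*, a doublecortin-domain protein of the cilium, was at 12.1 to 21.2 CPM (median 14.1) in UNT mice, 111 to 209 (median 149.9) in PBS and 132 to 180.1 (median 155) in RGLS4326 (3.38 ± 0.1002, adjusted p = 2.36e-25). UNT mice lay wholly apart from PBS mice for *Dcdc2a*.

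Of the inversin compartment, a segment of the cilium beside the transition zone, only *Nek8* fell, with 21.4 to 36.8 CPM (median 29.6) in UNT mice, 18.3 to 27.5 (median 22.4) in PBS and 17.3 to 24.3 (median 21.4) in RGLS4326 (-0.40 ± 0.077, adjusted p = 1.73e-05). *Invs*, the scaffold of the compartment, was at 27.7 to 39.6 CPM (median 31.9) in UNT mice, 21.2 to 38.4 (median 30.2) in PBS and 27.5 to 39.5 (median 33.1) in RGLS4326 (-0.08 ± 0.075, adjusted p = 0.317). *Anks6*, the activator of the *Nek8* kinase, was at 15.4 to 25.5 CPM (median 21.4) in UNT mice, 20.1 to 24.1 (median 21.6) in PBS and 18.1 to 24.9 (median 20.9) in RGLS4326 (0.02 ± 0.064, adjusted p = 0.731). Neither *Invs* nor *Anks6* was called, and each overlapped across the 3 groups.

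The 2 basal body genes went opposite ways. *Cep164*, a distal appendage protein needed to dock the basal body, was at 26.4 to 38.3 CPM (median 31.9) in UNT mice, 33.96 to 46.5 (median 41.9) in PBS and 36.6 to 43.1 (median 40.3) in RGLS4326 (0.35 ± 0.053, adjusted p = 2.02e-07). *Ofd1*, a centriolar satellite and basal body protein encoded on the X chromosome, was at 16.8 to 21.6 CPM (median 18.3) in UNT mice, 13.4 to 16.6 (median 14.4) in PBS and 13.3 to 21.1 (median 17.1) in RGLS4326, lower in every PBS mouse than in any UNT mouse (-0.29 ± 0.071, adjusted p = 3.61e-04). Of 10 other distal appendage and centriole genes 6 fell and 1 rose. *Cep89* fell by 0.43 (adjusted p = 3.98e-09) and *Sclt1* by 0.92 (adjusted p = 2.57e-09), both distal appendage proteins.

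Of the cystic disease proteins that act at the cilium, *Pkd1*, which encodes polycystin-1, was at 72.3 to 128 CPM (median 115) in UNT mice, 78.1 to 171 (median 150.2) in PBS and 132 to 205 (median 184) in RGLS4326 and rose (0.40 ± 0.10, adjusted p = 5.56e-04). *Pkhd1*, which encodes fibrocystin and whose promoter drives the Cre here, was at 206 to 358 CPM (median 280.2) in UNT mice, 295 to 643 (median 474) in PBS and 369 to 562 (median 481) in RGLS4326 (0.69 ± 0.0998, adjusted p = 1.03e-07). *Pkd1* and *Pkhd1* thus rose while *Pkd2* fell, and *Dzip1l* (-0.24) and *Ganab* (-0.21) fell as well.

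**Figure D3:**
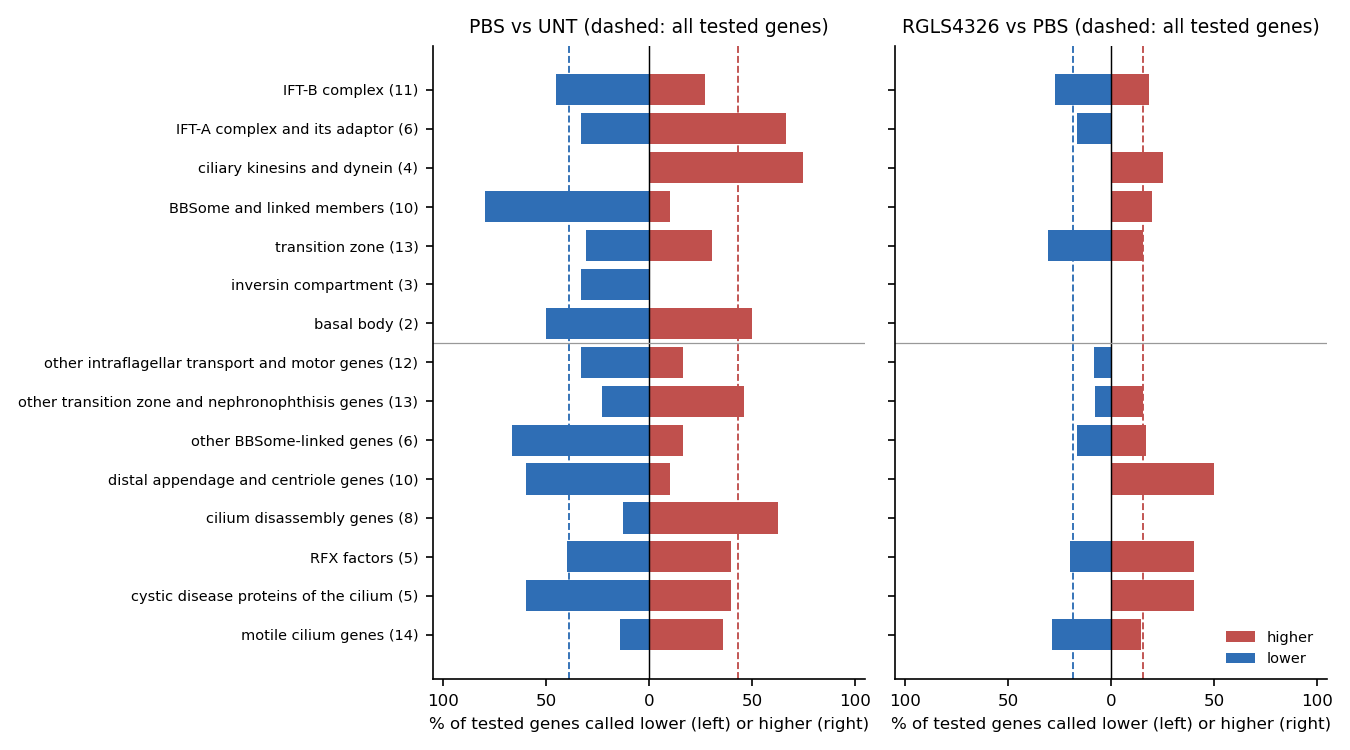
Share of the tested genes (number in brackets) called higher (right, red) and lower (left, blue) in PBS vs UNT and in RGLS4326 vs PBS, for 7 roles of the cilium genes (above the line) and 8 related lists (below it); dashed lines give the shares over all tested genes. In PBS vs UNT the BBSome and the other BBSome-linked genes have the longest blue bars (8 of 10 and 4 of 6).

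The direction of these changes depends on the scale to some extent. TMM scaling left the median log2 fold change over all genes at 0.04, and scaling by library size only moved it to 0.33. On that scale 28 cilium genes were called higher and 8 lower. The calls above are therefore relative to the TMM scale, on which the median of the 52 genes was -0.09. Of the BBSome genes that fell, *Bbs2* (-0.33), *Bbs7* (-0.55), *Bbs12* (-0.38) and *Arl6* (-0.19) were also called lower by library size, as were *Ift88*, *Ift172* and *Mks1*. *Bbs1* (-0.049), *Bbs5* (-0.13), *Ttc8* (-0.040) and *Bbs10* (-0.18) were not called on that scale, and neither were *Ift20*, *Ift122* and *Nek8*. Within each of the 3 sets of libraries described below, 39 of the 40 called genes had the direction of the whole. With PBS mouse 9 and UNT mouse 10 left out together, a setting chosen after seeing the data, 16 cilium genes were higher and 24 lower. Exons of some cilium genes overlap another gene in the tables, which makes their counts uncertain. The overlap was 19.0% of exon length in *Tctn1*, where the neighbour is *Hvcn1*, and 1.11% to 7.58% in *Kif7*, *Bbs4*, *Bbs12*, *Arl6*, *Cep290*, *Tmem67*, *Tmem216*, *Invs* and *Ofd1*.

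When levels are set per length, as CPM divided by the exon length in kilobases (RPKM), the cilium genes spanned a wide range. *Ift20* had the highest mean over all 34 mice, at 21.6 RPKM, and *Ift52* was at 19.0. *Nphp4* had the lowest, at 0.783, followed by *Rpgrip1l* at 1.08, *Kif7* at 1.09, *Cep290* at 1.39 and *Tmem67* at 1.72. The order changed with the group, and *Kif7* was below *Rpgrip1l* in UNT mice. *Kif3b* was at a mean of 9.67 RPKM in UNT and 14.5 RPKM in PBS mice, *Ift43* at 7.9 RPKM and 14.3 RPKM, and *Arl6* at 13.7 RPKM and 9.76 RPKM.

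Treatment with RGLS4326 was followed by smaller changes. Relative to PBS, 7 cilium genes rose, 9 fell and 36 were not called, while over all tested genes 33.8% were called, 15.3% higher and 18.5% lower. The share of cilium genes called (16 of 52) was near that of all genes. No cilium gene was called with an absolute log2 fold change above 0.5 (0 of 52, against 8.04% of all genes; by edgeR 19 of the 52 had an unadjusted p under 0.05). RGLS4326 and PBS mice overlapped for each of the 52 genes, and over all genes they were apart for 0.0447% (higher) and 0.0192% (lower). The median log2 fold change of the 52 genes was 0.03. By role, 2 BBSome genes rose and 0 fell, 2 IFT-B genes rose and 3 fell, and 2 transition zone genes rose and 4 fell. The motor gene *Dync2h1* rose, *Ift43* of IFT-A fell, and 0 of the inversin compartment and basal body genes were called. The 36 genes not called lay between -0.14 (*Tmem216*) and 0.23 (*Cep290*). With reads in no gene as a covariate, described below, 0 of the 52 genes and 0.569% of all genes were called. In that fit the median log2 fold change of the 52 genes was -0.013.

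The genes that rose were *Bbs12*, *Bbs7*, *Dync2h1*, *Tmem67*, *Mks1*, *Ift88* and *Ift80*. *Bbs12* had the largest rise (0.42 ± 0.13, adjusted p = 0.0159), with RGLS4326 mice from 4.67 to 10.7 CPM, a wider range than that of PBS mice. RGLS4326 mice 5, 6, 7 and 11 had the highest levels of *Bbs12* in their group (10.7, 8.29, 9.53 and 9.41 CPM), and their libraries had its highest shares of reads in no gene (11.3% to 12.0%, against 4.94% to 8.92% in the others). *Bbs7* rose to levels between those of the other groups (0.33 ± 0.095, adjusted p = 0.0115), as did *Ift88* (0.22 ± 0.062, adjusted p = 0.00902). *Tmem67* (0.25 ± 0.074, adjusted p = 0.0132) and *Ift80* (0.20 ± 0.066, adjusted p = 0.0205) were at medians of 13.9 and 32.6 CPM in RGLS4326, beside 13.3 and 33.0 CPM in UNT mice. *Dync2h1* had 0.28 ± 0.10 (adjusted p = 0.0365) and *Mks1* 0.23 ± 0.086 (adjusted p = 0.039).

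Of the 9 genes that fell, 4 encode subunits of the IFT complexes and 4 proteins of the transition zone. *Ift27* had the largest fall (-0.38 ± 0.087, adjusted p = 0.0036) and the smallest p. The other IFT genes that fell were *Ift22* (-0.33 ± 0.082, adjusted p = 0.00505), *Ift43* (-0.28 ± 0.077, adjusted p = 0.00981) and *Ift46* (-0.26 ± 0.085, adjusted p = 0.0198). In the transition zone *B9d1* (-0.29 ± 0.080, adjusted p = 0.0083), *Tmem231* (-0.23 ± 0.070, adjusted p = 0.0148), *B9d2* (-0.24 ± 0.083, adjusted p = 0.0287) and *Tctn2* (-0.19 ± 0.073, adjusted p = 0.0431) were lower.

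The PBS mice entered both comparisons, so the signs of the 2 fold changes of a gene are not independent. For *Bbs7* they were -0.85 in PBS vs UNT and 0.33 in RGLS4326 vs PBS, for *Bbs12* -0.67 and 0.42, and for *Ift88* -0.44 and 0.22. For *Ift27* they were 0.49 and -0.38, for *Ift43* 0.86 and -0.28, and for *B9d1* 0.71 and -0.29. Of other genes with large changes in PBS vs UNT, *Bbs2* (0.07 ± 0.042, adjusted p = 0.188), *Kif3b* (-0.01 ± 0.052, adjusted p = 0.87) and *Ift172* (0.04 ± 0.051, adjusted p = 0.599) were not called in RGLS4326 vs PBS. RGLS4326 mice set directly against UNT mice had 13 cilium genes higher, 19 lower and 20 not called, where 77.7% of all genes were called, 40.8% higher and 36.9% lower.

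Several calls of the treatment comparison lay near the threshold and changed when a single mouse was left out. Over all genes the share called, 33.8% with all mice, went from 25.6% (without RGLS4326 mouse 6) to 39.6% (without PBS mouse 5). Fold changes kept their direction in these fits: -0.28 to -0.168 for *B9d2*, 0.223 to 0.315 for *Dync2h1*, 0.193 to 0.271 for *Mks1* and -0.228 to -0.154 for *Tctn2*. *B9d2* was not called, at adjusted p of 0.0504 to 0.0816, without PBS mouse 9 or RGLS4326 mouse 5, 6, 7, 9 or 11, and *Dync2h1*, at adjusted p of 0.0543 to 0.0829, without PBS mouse 2, 4 or 10 or RGLS4326 mouse 5, 6 or 7. *Mks1* lost its call, at adjusted p of 0.0517 to 0.0857, in 11 of 34 fits (PBS mice 1, 2, 3, 4 and 11, RGLS4326 mice 1, 5, 6, 7, 9 and 11), and *Tctn2*, at adjusted p of 0.0538 to 0.0917, in 12 (PBS mice 4, 6, 9, 10 and 11, RGLS4326 mice 1, 2, 5, 6, 7, 9 and 11). *Ttc8* was called without PBS mouse 6 or RGLS4326 mouse 11 (adjusted p of 0.045 to 0.0478), *Tmem216* without RGLS4326 mouse 4 (adjusted p = 0.0444) and *Ofd1* without RGLS4326 mouse 2, 3 or 8 (adjusted p of 0.0322 to 0.0372). With PBS mouse 9 left out there were 7 genes higher and 6 lower, and the same with UNT mouse 10 left out as well, a setting chosen after seeing the data.

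The cilium genes that fell with RGLS4326 tended to be shorter than those that rose. The median summed exon length was 2860 bases for the 9 that fell, 5390 bases for the 7 that rose and 5500 bases for the other 36. Over all tested genes it was 3000 bases for those that fell, 6100 bases for those that rose and 4330 bases for those not called. When all genes were ordered by exon length and cut into 10 equal bins, the median log2 fold change in RGLS4326 vs PBS went from -0.15 in the shortest bin to 0.17 in the longest, as drawn in the plot against exon length. Beside this, reads in no gene had a median of 8.38% in RGLS4326 and 6.62% in PBS libraries. With that share as a covariate in the edgeR fit, 0 of the 52 cilium genes were called in either direction (6 had an unadjusted p under 0.05) and 0.569% of all genes were. In PBS vs UNT the same fit called 12 cilium genes higher and 17 lower, where 70.2% of all genes were called. Here the share did not overlap between PBS and UNT libraries, so it cannot be cleanly told from the group. Beside the 3 IFT-B genes above, calls of *Bbs12* (-0.081), *Mks1* (-0.17), *Bbs5* (-0.059), *Tctn2* (0.19), *Ofd1*, *Cep290*, *Ift80*, *Ift74*, *Wdr35*, *Ift140*, *Bbs9*, *Tmem67* and *Tctn3* were lost in that fit. Other calls were gained in it, among them those of *Ift52*, *Tctn1* and *Rpgrip1l*. The part of exon length in these results was not tested.

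**Figure D4:**
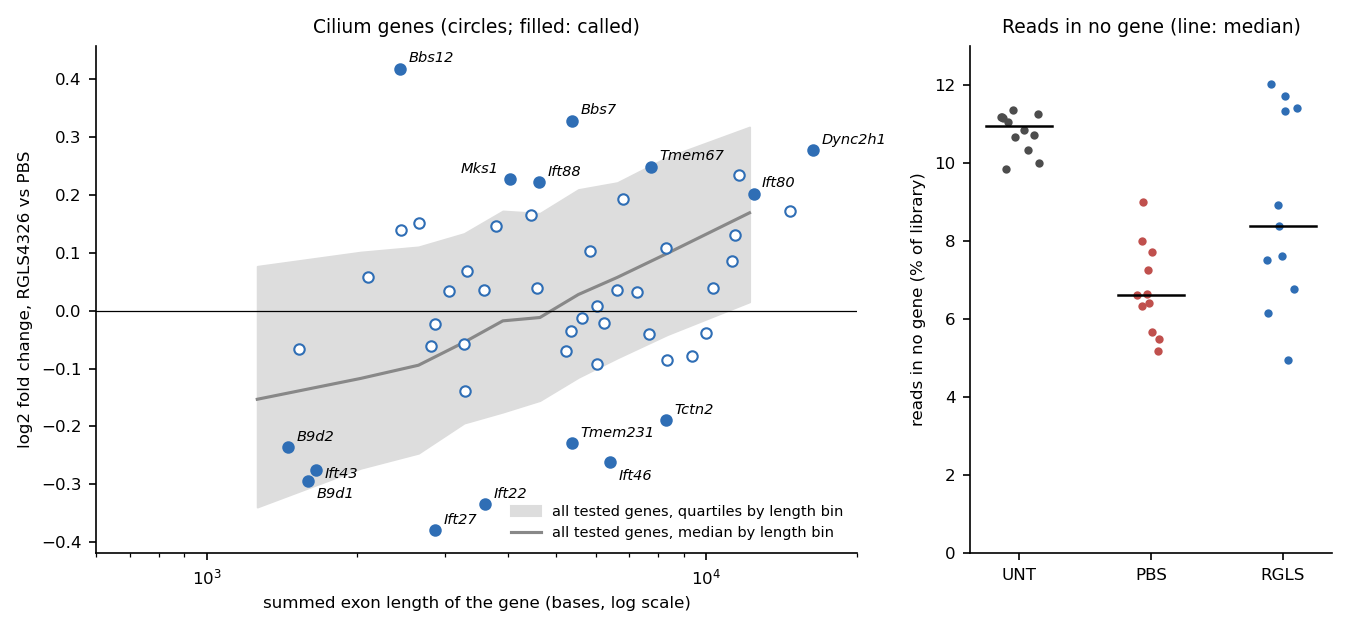
Left, log2 fold change in RGLS4326 vs PBS of 49 of the cilium genes (circles, filled where called) against the summed exon length of each gene on a log axis, with the median (line) and quartiles (grey) of all tested genes in 10 length bins. Right, reads in no gene as a share of each library (points) with the group median (line): the median of all genes rises from -0.15 to 0.17 with length, and RGLS4326 libraries spread from 4.94% to 12.0%.

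The S numbers in the names of the count tables restart, which gives 3 sets of libraries, each with 3 or 4 mice of every group; what the sets are is not given in the sources used here. Within the sets, 14 of the 16 genes called in RGLS4326 vs PBS kept their direction in all 3, the exceptions being *Bbs12* and *Tctn2* in set 1. The mean difference in log2(CPM + 1) of *Bbs12* was -0.08 in set 1, 0.71 in set 2 and 0.42 in set 3, and that of *Ift27* was -0.22, -0.39 and -0.48. A test of the treatment effect by set called 0 of 15644 genes (edgeR, interaction term; 5 cilium genes had an unadjusted p under 0.05). Fitted alone, set 1 and set 3 each called 0 cilium genes (edgeR; 3 and 6 with an unadjusted p under 0.05), where 0.343% and 0% of all genes were called. Set 2 called 12 cilium genes higher and 4 lower, where 25.5% of all genes were called, 2164 higher and 1901 lower. Reads in no gene made up 11.3% to 12.0% of the RGLS4326 libraries of set 2 and 5.49% to 8.99% of its PBS libraries.

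**Figure D5:**
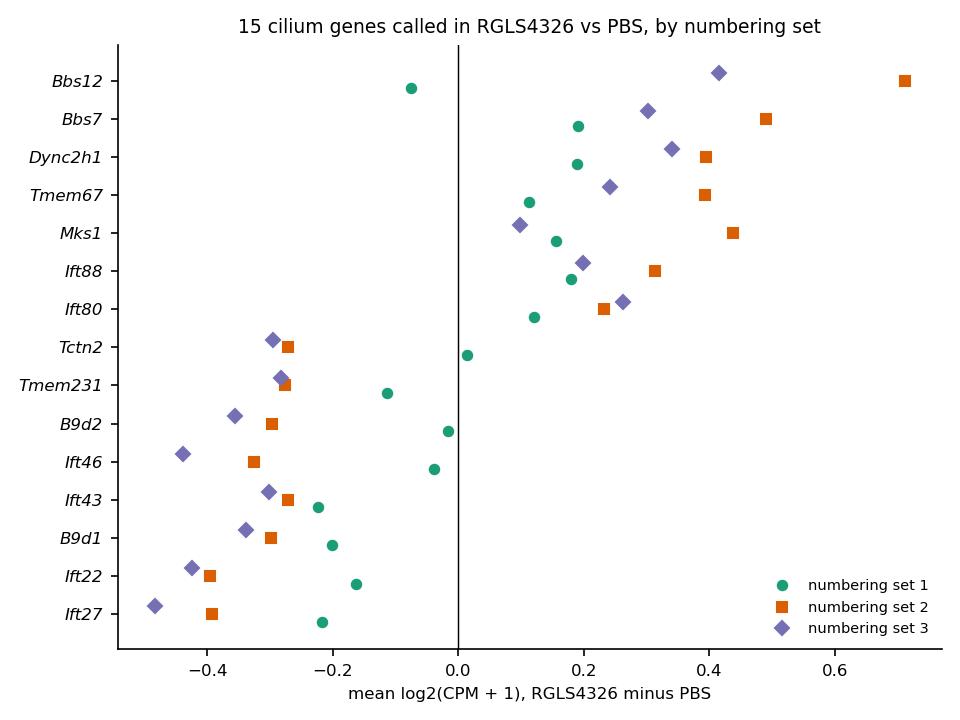
Mean log2(CPM + 1) of RGLS4326 minus PBS mice within each of the 3 numbering sets, for 15 of the cilium genes called in RGLS4326 vs PBS, ordered by their fold change. Set 1 lies closer to 0 than sets 2 and 3 for most genes and crosses it for *Bbs12* and *Tctn2*.

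Of the 8 cilium genes with a seed match, 2 were called higher with treatment, *Bbs12* and *Ift88*, and of the other 43 genes with a 3′UTR 5 were. Over all tested genes 15.3% were called higher, and the difference between these small counts was not tested. *Invs*, with the 8-base match, had 0.13 ± 0.077 (adjusted p = 0.178), and *Kif3b*, with matches at 2 places, -0.01 ± 0.052. *Ofd1* (0.16), *Rpgrip1l* (0.17), *Ttc8* (0.15) and *Cep164* (-0.04) were not called. Of the 4 genes with an X-box, *Bbs7* and *Mks1* rose, *B9d2* fell and *Tctn1* was not called (0.11).

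Related lists are read beside the 15.3% of all genes called higher and 18.5% called lower with treatment, and no difference between lists was tested. Of 10 other distal appendage and centriole genes 5 rose and 0 fell, with a median of 0.23. *Cep97*, which caps the centriole, had 0.42 ± 0.095 (adjusted p = 0.00339), and *Ccp110*, its partner, 0.44 ± 0.15 (adjusted p = 0.0222). Of 12 other IFT and motor genes 0 rose and 1 fell, *Wdr34* (-0.20). *Dcdc2a* did not pass (-0.02 ± 0.094, adjusted p = 0.905). *Pkd2* (0.39 ± 0.093, adjusted p = 0.00439) and *Pkd1* (0.30 ± 0.10, adjusted p = 0.0286), both with an 8-base seed match in the 3′UTR, rose, and *Pkhd1* was not called (0.05 ± 0.10, adjusted p = 0.733). The part of the seed match in these rises was not tested. PBS mouse 9 had the lowest level of its group for both *Pkd2* (98.0 CPM) and *Pkd1* (78.1 CPM).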

How the data were processed

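Per the labels, polyadenylated RNA from 34 kidneys was made into stranded mRNA libraries. The authors trimmed the reads with Trim Galore, mapped them with STAR to GRCm38 (mm10) and counted uniquely mapped reads per gene with HTSeq (version 0.6.1 in the submitters' processing notes). The deposited values were raw counts per gene symbol, 1 table per mouse, without normalization or pooling. The annotation and strand setting of the counting are not given in the sources used here, so genes whose exons overlap another gene are uncertain. No 2 libraries were identical (0 pairs), and 0 rows named no gene once the counter's totals were set aside. The labels do not say whether mice share litters, so p-values measure the spread between these mice.

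Counts were scaled by TMM and tested with edgeR 4.0.16 (quasi-likelihood, two-sided; R 4.3.3) on 15644 genes kept by filterByExpr, in 1 fit of 34 libraries with 3 groups and no covariate. The 52 genes, the related lists and the markers were chosen with earlier results of these data known. Named genes were, per role, the 2 smallest p values and the largest in PBS vs UNT, the 10 smallest in RGLS4326 vs PBS, any gene called in the same direction in both, and 2 per related list plus *Pkd1*, *Pkd2* and *Pkhd1*; other genes named from those lists, and those in the figures, were chosen after their values were seen. Values of 3 of the 52 genes and of 1 gene of a related list are not reported here, but the counts and medians over the 52 genes and over the lists include them. Seed matches used GENCODE M21 and promoters RefSeq (GRCm38.p6; 47 of 52 matched). On simulated counts for RGLS4326 vs PBS (15565 genes), 95 of 100 genes changed by a log2 fold change of 1 and 76 of 100 changed by 0.5 were recovered, with 8 false calls among 179. The simulation changed 200 genes, whereas 33.8% were called in the data, and its libraries differed otherwise only in size. Its rates need not hold for these data. Libraries held 17603122 or more reads in genes, and genes of few CPM carry more counting error. Alternatives were DESeq2 1.42.0, other scalings, no filter, covariates, single sets and leaving out each mouse. Figures were drawn with matplotlib 3.10.9.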

Additional observations from a re-analysis of the deposited data

How the results depend on the processing

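The counts of cilium genes called kept within 1.5 times under DESeq2, DESeq2's size factors, no filter, the numbering set or sex as covariate, and every fit that left out 1 mouse. The latter gave 16 to 18 higher and 21 to 24 lower in PBS vs UNT, 5 to 8 and 6 to 10 in RGLS4326 vs PBS, and 13 and 18 to 20 in RGLS4326 vs UNT, beside 17 and 23, 7 and 9, and 13 and 19. Library size alone gave 28 higher and 8 lower in PBS vs UNT and 32 and 4 in RGLS4326 vs UNT, because the median of all genes moved to 0.33 in both. Requiring an absolute log2 fold change above 0.5 left 6 and 5 in PBS vs UNT, 0 and 0 in RGLS4326 vs PBS and 4 and 3 in RGLS4326 vs UNT. In RGLS4326 vs PBS a covariate for reads in no gene gave 0 and 0 (edgeR; 6 at an unadjusted p under 0.05), set 1 alone 0 and 0 (3 at an unadjusted p under 0.05), set 3 alone 0 and 0 (6), and set 2 alone 12 and 4; single sets hold fewer mice. Set 3 alone gave 11 higher in PBS vs UNT and 7 higher and 12 lower in RGLS4326 vs UNT, and set 2 alone 11 lower in the latter. The causes of the other differences were not tested.

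Among genes called in either fit, signs reversed in PBS vs UNT with library size only for *Ift57* (0.20), *Ift74* (0.11), *Ift80* (0.024), *Ift81* (0.23), *Tulp3* (0.044), *Bbs4* (0.24), *Cep290* (0.026), *Tmem67* (0.12), *Tctn1* (0.22), *Tctn3* (0.14), *B9d2* (0.25), *Rpgrip1l* (0.27), *Invs* (0.22) and *Ofd1* (0.0078). *Dync2h1* (0.14) and *Cc2d2a* (0.045) turned positive too but were called in neither. With the covariate for reads in no gene the signs reversed for *Ift46* (-0.027), *Ift52* (-0.14), *Tmem67* (0.054), *Tctn1* (0.26) and *Rpgrip1l* (0.35). PBS and UNT libraries did not overlap in that share, so these values do not part it cleanly from the group. In set 1 alone *Bbs12* was at -0.070 and *Tctn2* at 0.027 in RGLS4326 vs PBS.

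Replicate numbers are shared by the groups, but the labels give them no meaning. Deviations of same-numbered mice correlated over 0.1 in 5 of 11 pairs of PBS and RGLS4326 (-0.24 to 0.45), 2 of 11 of UNT and PBS and 3 of 11 of UNT and RGLS4326. Mice of different numbers were not compared in this way, so whether the numbers pair the mice is not settled. The replicate block gave 17 higher and 23 lower, 7 and 8, and 13 and 20 in the 3 comparisons. In simulated counts genes changed by 0.5 were recovered less often than those changed by 1 (76 and 95 of 100), and most changes reported here were below 0.5.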

Other observations

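The counts of the lists here stand beside 43.1% of all tested genes called higher and 39.0% called lower in PBS vs UNT, and 15.3% and 18.5% in RGLS4326 vs PBS. Of 8 genes that promote or hold back disassembly of the cilium, 5 rose and 1 fell in PBS vs UNT and 0 were called in RGLS4326 vs PBS (edgeR; 1, *Tchp*, had an unadjusted p under 0.05). *Plk1*, a mitotic kinase, was at 2.11 to 8.56 CPM (median 3.57) in UNT mice, 6.66 to 11.7 (median 8.89) in PBS and 6.91 to 9.97 (median 8.44) in RGLS4326 (1.11 ± 0.16, adjusted p = 5.91e-08), and *Aurka*, the kinase that starts disassembly, had 0.75 ± 0.16 (adjusted p = 8.61e-05). *Hdac6*, the tubulin deacetylase, fell (-0.51 ± 0.054, adjusted p = 7.49e-11), and *Kif2a*, a microtubule-depolymerizing kinesin, rose (0.35 ± 0.055, adjusted p = 5.64e-07). Summed markers of dividing cells (6 genes) were at 37.8 to 196 CPM in UNT, 128 to 213 in PBS and 148 to 279 in RGLS4326 mice. Their part in these values was not tested.

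Genes of motile cilia, which kidney tubules of the mouse do not normally bear, were examined as a list beside them. Of 18 genes 14 were tested, of which 5 rose and 2 fell in PBS vs UNT, and the sum over the list was 31.6 to 40.9 CPM in UNT, 35.4 to 48.2 in PBS and 31.9 to 46.0 in RGLS4326 mice. *Foxj1*, the factor that switches on motile cilium genes, was at 0.129 to 0.722 CPM (median 0.352) in UNT mice, 6.94 to 17.4 (median 12.7) in PBS and 6.75 to 12.8 (median 8.72) in RGLS4326. UNT and PBS mice were far apart (5.03 ± 0.19, adjusted p = 1.35e-22), and it was lower with RGLS4326 (-0.46 ± 0.16, adjusted p = 0.0247). *Dnah11*, a dynein heavy chain of motile cilia, went the other way, with 3.58 to 6.54 CPM (median 4.78) in UNT mice and 0.0845 to 0.664 (median 0.352) in PBS (-3.56 ± 0.21, adjusted p = 1.44e-17). *Ccdc40* (2.42 ± 0.18, adjusted p = 1.60e-14) and *Rsph4a* (2.35 ± 0.25, adjusted p = 6.93e-11), structural genes of motile cilia, rose from medians of 0.23 and 0.131 CPM in UNT to 1.35 and 0.761 CPM in PBS. *Rsph1* (0.75) and *Dnai2* (0.54) also rose, and *Ccdc39* fell (-0.62). The other 7 tested genes were not called. In RGLS4326 vs PBS 2 of the 14 tested genes rose and 4 fell, with log2 fold changes from -0.468 to 0.728 over the list.

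Of 6 RFX factors, which bind the X-box, 5 were tested, and 2 rose and 2 fell in PBS vs UNT. *Rfx2* had 0.87 ± 0.093 (adjusted p = 1.53e-10) and *Rfx3* -0.44 ± 0.14 (adjusted p = 0.00438). In RGLS4326 vs PBS *Rfx2* was at -0.30 ± 0.095 (adjusted p = 0.0181) and *Rfx3* at 0.38 ± 0.14 (adjusted p = 0.0363).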
